A study of Agaricus bisporus with 16 samples.

Results

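The commercial white button mushroom strain A15 and the strain 219 30P of Agaricus bisporus were compared in colonised compost at the first flush of mushrooms, 39 days after the spawn was added. The comparison used the 2 libraries of 219 30P and the 2 libraries of A15 from that day, 4 of the 16 libraries of the series, and it was chosen by strain and day alone. The other 12 libraries came from the strains 245 AMA-7 and 065 BP-8 on the same day and from all 4 strains on day 27, the pinning stage, when mushroom buds form. No sample had a treatment, and every strain grew on the same kind of wheat straw and manure compost under a casing layer in crates. RNA was extracted from duplicate compost samples. No label gives the crate of a duplicate, so p-values reflect spread that may be technical in origin. A compost sample holds mycelium of unknown amount and age, and in such bulk samples fewer cells of a kind and less RNA per cell cannot be told apart. The labelled material was not checked against marker genes, since the gene names at hand include no set of markers for compost mycelium.

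A. bisporus feeds on compost by secreting enzymes that break down lignin and plant polysaccharides and by taking up what they release. Laccases are copper enzymes that oxidise phenols, and manganese peroxidase oxidises lignin through manganese ions. Inside the hyphae the respiratory chain passes electrons through complexes I to IV to oxygen and drives ATP synthase, while an alternative oxidase can bypass the later complexes. Two-component signalling passes stress signals through histidine kinases, a phosphotransfer protein and response regulators.

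On day 39 the clearest differences among genes with a name lay in lignin-active enzymes, a lectin and two-component signalling. The count of lower respiratory chain genes depended on the scaling and on gene length. The laccase genes lcc1 and lcc2, manganese peroxidase and the lectin gene abl were much lower in 219 30P than in A15. Most of the measured genes of respiratory complexes I and II were slightly to moderately lower as deposited, though with median-ratio scaling only 12 of the 24 in complex I and 2 of the 5 in complex II were. With the trend of the differences over gene length removed, 11 of the 24 and 2 of the 5 were lower. The response regulator gene SKN7, the histidine kinase gene STK/HK and both catalase genes were higher. The largest differences of all, in both directions, lay in genes that carry no name in the reference annotation, as do all but 88 of the 8818 genes tested.

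Levels were read as FPKM, a unit that no label names and that counts fragments per kilobase of a transcript, relative to all fragments mapped in a library. Differences are 219 30P minus A15 on the log2(FPKM + 1) scale with their standard error, so that 1 is a 2-fold difference and low genes are understated. A difference was called where limma's test across all 8818 genes gave a Benjamini-Hochberg adjusted p under 0.05. The FPKM of all genes summed to 871296 and 859267 in the 219 30P libraries, against 865576 and 898787 in the A15 libraries, and the files give no read counts. Low values move in steps. By these a single read on a 1 kilobase gene stood at 0.124 and 0.134 FPKM in 219 30P, against 0.128 in both A15 libraries. This rough estimate, made with reference lengths that include introns, shows no large difference in depth. Replicates ranked the genes almost alike (Spearman 0.992 in 219 30P and 0.986 in A15), while libraries of different strains gave 0.881 to 0.894. The A15 tables list 9520 genes and those of the other strains 10438, which shows that the A15 tables were made or filtered separately. Strain and table therefore cannot be told apart in any difference from A15. For this reason the difference between 219 30P and the mean of 245 AMA-7 and 065 BP-8, whose tables list the same genes, is set beside the main one where it helps. Both comparisons share the 219 30P libraries and are not independent.

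Of 8818 genes tested, 5268 were called, which is 59.7%. In 219 30P, 1715 genes were higher (19.4%) and 3553 lower (40.3%), and the median difference over all genes was -0.22. The balance depended on the scaling of the libraries. The size factors of the median-ratio method were 0.942 and 0.953 for 219 30P, against 1.11 and 1.09 for A15. After this scaling 5060 genes were called (57.4%), and 2489 genes were higher (28.2%) and 2571 lower (29.2%), with a median of -0.02. The share of higher genes among the calls was 32.6% as deposited. It was 49.2% after median-ratio scaling and 50.5% after quantile normalization. Both methods align the libraries at their middle, which largely sets this share. Median-ratio scaling raises 219 30P relative to A15, so the side that gains or loses calls was largely set in advance. All 1715 higher genes kept their call and none reversed, but 982 of the 3553 lower genes lost it and 774 others became higher. Differences of about 0.2 below 0 are therefore near the middle of all genes, and values below are as deposited unless a scaling is named. Of the 66 genes named by rule, 9 lost their call with median-ratio scaling: lcc9, SDH2, QCR8, COX4, ATP17, hom2, PAL1, Fet3 and the SDH3 gene AGABI2DRAFT_217734. In the 219 30P libraries the 100 most abundant genes held 38.2% and 37.0% of all FPKM, against 33.6% and 34.3% in the A15 libraries.

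**Figure D1:**
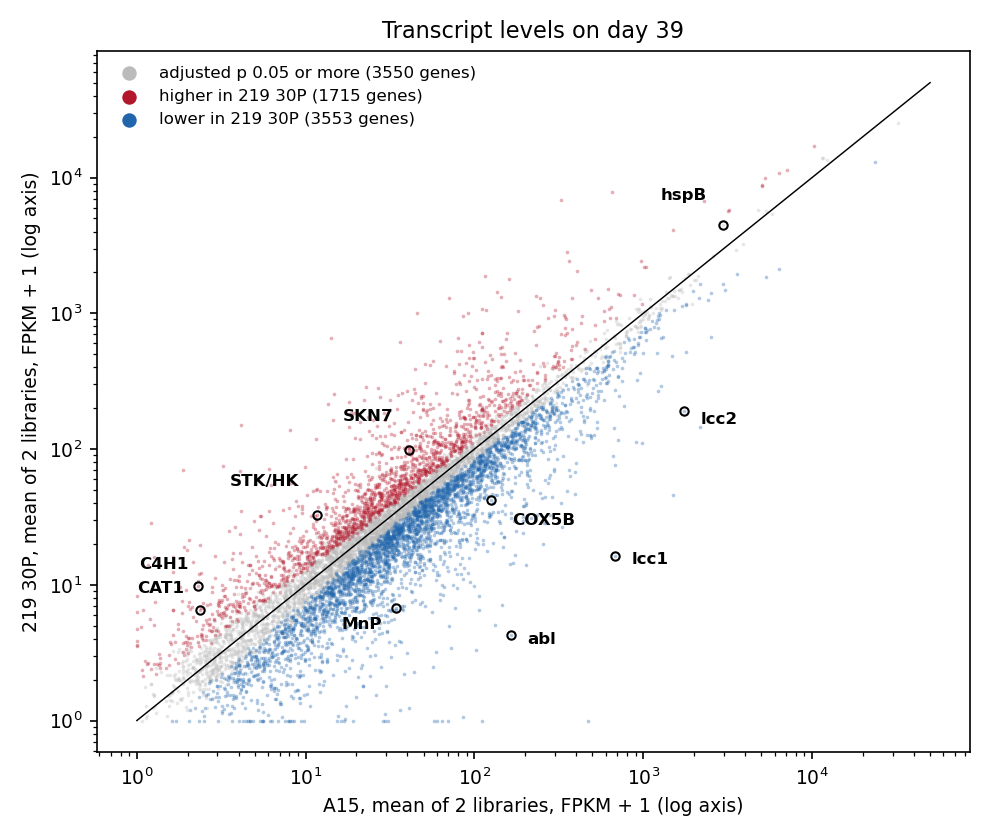
Mean level of each tested gene on day 39 in 219 30P (vertical axis) against A15 (horizontal axis), in FPKM + 1 on log axes, means of 2 libraries each. Red points are the 1715 genes called higher in 219 30P, blue points the 3553 called lower, and the line marks equal levels; lcc1, lcc2 and abl lie far below it.

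Of the larger differences as deposited, nearly all were also called with median-ratio scaling. At least 2-fold, 574 genes were higher (6.51%) and 1318 lower (14.9%), and at least 4-fold, 158 were higher (1.79%) and 316 lower (3.58%). This surplus of lower genes was smaller with median-ratio scaling, with 805 higher and 954 lower at least 2-fold and 205 and 245 at least 4-fold. Quantile normalization gave 910 higher and 908 lower genes at least 2-fold, and 215 and 240 at least 4-fold. With median-ratio scaling all 158 and all 316 of the 4-fold genes, all 574 of the 2-fold higher and 1302 of the 1318 2-fold lower genes were called the same way. Since this scaling raises 219 30P relative to A15, it is a check on the lower genes only. The 574 higher genes held 15.97% of all FPKM in 219 30P, against 3.99% in A15. The 1318 lower genes held 4.42% in 219 30P, against 14.1% in A15. Named genes were rare throughout, with 88 of all 8818 genes tested, 5 of the 574 and 7 of the 1318.

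Among the 6 laccase genes, 1 was higher, 3 were lower and 2 were not called, beside 19.4% higher and 40.3% lower of all genes. The gene lcc1 (AGABI2DRAFT_146228) had 13.7 and 16.9 FPKM in 219 30P, against 740.4 and 625 FPKM in A15. Every A15 library was far above every 219 30P library. The difference was -5.39 ± 0.40 (SE, limma adjusted p = 6.02e-07), a 42.1-fold lower level. On day 27 the order was the opposite, with 1871 and 774 FPKM in 219 30P, against 293.8 and 680.1 FPKM in A15 (1.43, limma adjusted p = 0.0138). That call was lost without replicate 1 of day 27 of 219 30P (0.79, limma adjusted p = 0.154) or of A15 (0.82, 0.146). On day 39 the level in 245 AMA-7 was near that of 219 30P, with 12.9 and 14.7 FPKM, while 065 BP-8 lay above both, with 49.9 and 63.5 FPKM. The difference between 219 30P and their mean was -0.84 (95% interval -1.60 to -0.09) and was not called (limma adjusted p = 0.0578).

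The gene lcc2 (AGABI2DRAFT_139148), another laccase, had 159 and 218 FPKM in 219 30P, against 1639.9 and 1832 FPKM in A15. These groups were also far apart (-3.21 ± 0.37, limma adjusted p = 1.48e-05, 9.24-fold lower). In 245 AMA-7 it had 161 and 151 FPKM and in 065 BP-8 228 and 283 FPKM, and 219 30P differed from their mean by -0.09 (95% interval -0.78 to 0.60, limma adjusted p = 0.826). For both genes A15 had by far the highest level of the 4 strains at the first flush. The third called fall, lcc9 (AGABI2DRAFT_194714), had 194 and 137 FPKM in 219 30P, against 269.9 and 282 FPKM in A15. Its difference of -0.76 ± 0.31 (limma adjusted p = 0.0490) was barely called, and it was not called with median-ratio scaling (limma adjusted p = 0.149), with a replicate block (0.0576), or without replicate 2 of 219 30P (0.277) or either A15 library (0.114 and 0.143). The gene lcc3 (AGABI2DRAFT_184981) was higher in 219 30P, with 26.1 and 20.9 FPKM, against 15 and 14.9 FPKM in A15 (0.61 ± 0.18, limma adjusted p = 0.0117, and 0.104 without replicate 1 of 219 30P; 0.81 with median-ratio scaling). The genes lcc10 (-0.56, limma adjusted p = 0.108) and lcc12 (-0.21, adjusted p = 0.863) were not called. Summed over the 6 genes, laccase transcripts came to 432.5 and 426.5 FPKM in 219 30P, against 2712 and 2802 FPKM in A15. The authors' division of reads between related laccase genes is not stated, so the level of each gene is less certain than the sum.

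The manganese peroxidase gene MnP (AGABI2DRAFT_221245) had 3.87 and 7.54 FPKM in 219 30P, against 27.6 and 38.9 FPKM in A15. The groups did not overlap, which on the lower side held for 4570 of all 8818 genes. The difference was -2.39 ± 0.35 (limma adjusted p = 9.62e-05). The gene was low in 219 30P also beside the other strains, with 13.1 and 12.01 FPKM in 245 AMA-7 and 42.5 and 66.0 FPKM in 065 BP-8 (-2.07 against their mean). On day 27 219 30P was above A15 by 1.247, a call lost without replicate 1 of that day of 219 30P (limma adjusted p = 0.0943) or of A15 (0.138).

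The gene abl (AGABI2DRAFT_194888) has the symbol of the A. bisporus lectin, a sugar-binding protein known mainly from the fruiting bodies. It had 3.87 and 2.60 FPKM in 219 30P, against 218 and 108 FPKM in A15, a 36.9-fold lower level (-5.20 ± 0.36, limma adjusted p = 3.51e-07). The lower A15 library was still far above both 219 30P libraries. In 245 AMA-7 it had 27.9 and 51.6 FPKM and in 065 BP-8 207 and 264 FPKM, so 219 30P was the lowest strain (-4.51 against their mean). The share of fruiting body tissue in the samples was not tested.

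**Figure D2:**
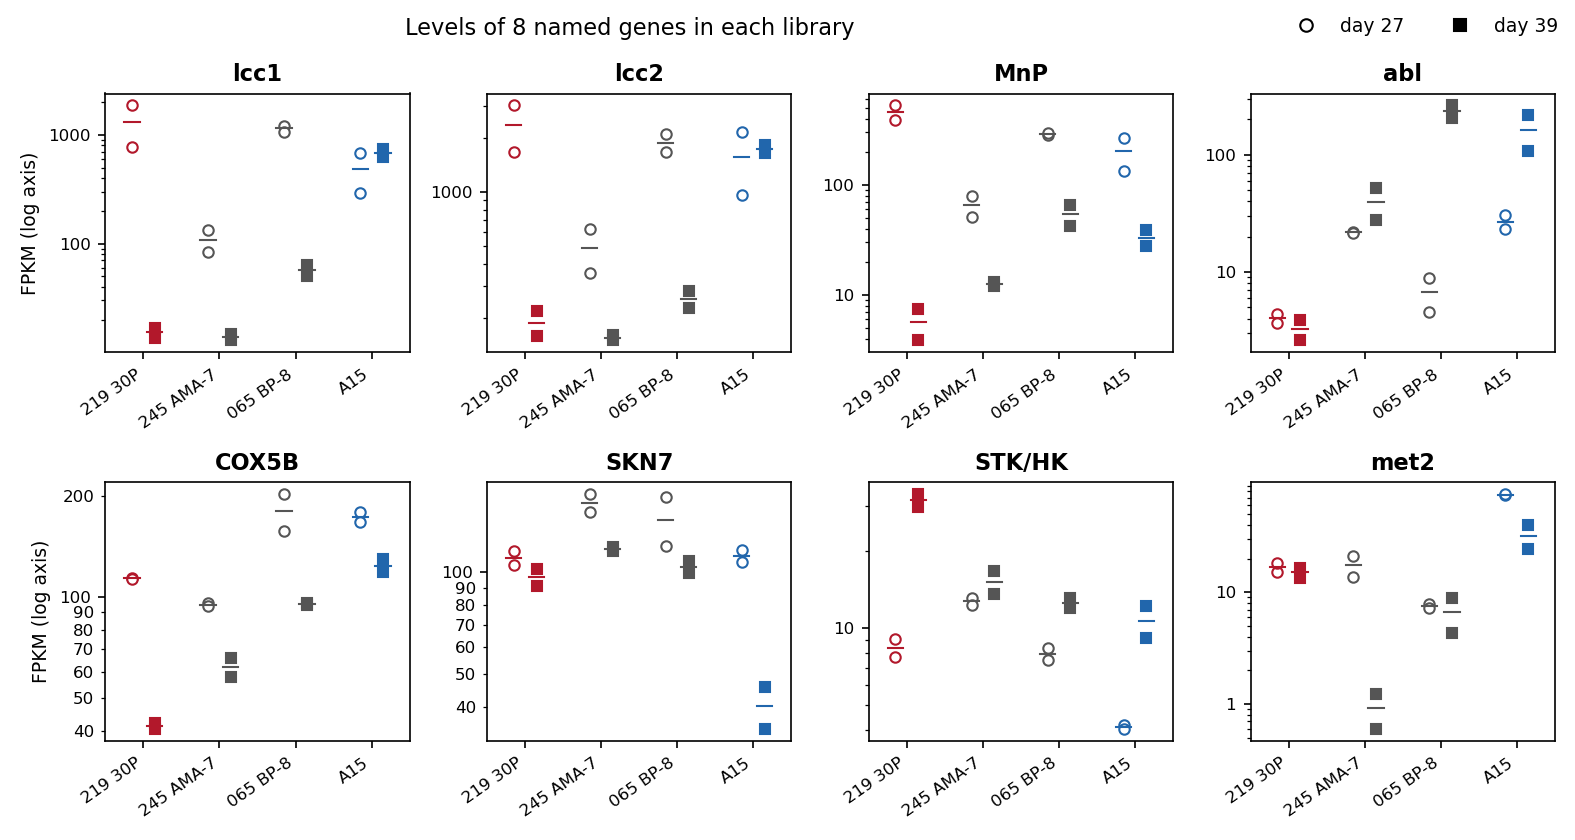
Level of 8 named genes in each of the 16 libraries, in FPKM on log axes that differ between panels; open circles are day 27, filled squares day 39, short lines the mean of 2 libraries, and strains run left to right with 219 30P in red and A15 in blue. On day 39 lcc1, lcc2 and SKN7 set A15 apart from all 3 other strains, while MnP, abl, COX5B and STK/HK in 219 30P lie beyond all other strains.

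For the 4 respiratory complexes and ATP synthase, 50 genes carry a name. In 219 30P, 33 of them were lower (23 without replicate 2 of A15), 1 was higher and 16 were not called, beside 40.3% lower and 19.4% higher of all genes, with a median of -0.36 against -0.22 over all genes. With median-ratio scaling 19 were lower and 7 higher, beside 29.2% and 28.2% of all genes, with a median of -0.15 against -0.02. Their summed level was 5846 and 5852 FPKM in 219 30P, against 6636 and 7174 FPKM in A15. On day 27 the sums overlapped, with 8814 and 9721 FPKM in 219 30P, against 9162 and 8804 FPKM in A15, and 10 of the 50 were higher and 5 lower, beside 27.5% and 14.1% of all genes. Against the mean of 245 AMA-7 and 065 BP-8 on day 39, where 53.8% of all genes were called, 35.2% lower and 18.7% higher, 32 of the 50 were lower and none higher. These counts describe the list and were not tested.

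Complex I, the NADH dehydrogenase that takes in most electrons, carried the largest count. Of its 24 genes 20 were lower (15 without replicate 2 of A15) and 4 were not called, beside 40.3% lower of all genes, and the differences ran from -0.98 to -0.05 with a median of -0.51. With median-ratio scaling 12 of the 24 were lower and none higher, beside 29.2% lower of all genes, with a median of -0.30. NdufA4 (AGABI2DRAFT_202899) had 66.2 and 72.6 FPKM in 219 30P, against 130.6 and 144 FPKM in A15, and the groups were well separated (-0.98 ± 0.09, limma adjusted p = 3.48e-06). NdufA2 (AGABI2DRAFT_138930) had 33.9 and 30.4 FPKM in 219 30P, against 59.9 and 59.8 FPKM in A15 (-0.88 ± 0.11). NUXM (AGABI2DRAFT_136834) had 41.2 and 41.7 FPKM in 219 30P, against 70.5 and 91.7 FPKM in A15 (-0.94 ± 0.14). The A15 libraries of NUXM differ more than those of the other subunits named here, yet both lie above 219 30P. All 3 were also called lower with median-ratio scaling. The core subunits NdufS1 and NdufV1 were not called as deposited (-0.07 and -0.17) or with median-ratio scaling. The core subunits NdufS3, NdufS7, NdufS8 and NdufV2 were lower in both 219 30P libraries than in either A15 library. That held for 21 of the 24 genes, beside 4570 of all 8818 genes. NdufS3 had 64.55 and 61.25 FPKM in 219 30P, against 104 and 110 FPKM in A15. For NdufS8 the levels were 79.8 and 75.5 FPKM, against 95.3 and 100 FPKM.

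All 5 genes of complex II, succinate dehydrogenase, were lower, beside 40.3% of all genes. SDH4, a membrane anchor subunit, was the lowest (-0.83 ± 0.13), with 42.2 and 39.2 FPKM in 219 30P, against 74.5 and 72.0 FPKM in A15. With median-ratio scaling 2 of the 5 were lower, beside 29.2% of all genes. In complex III, the cytochrome bc1 complex, QCR6, QCR8 and QCR9 were lower, whereas RIP1 (AGABI2DRAFT_61124), the Rieske iron-sulfur protein, was higher. RIP1 had 155 and 163 FPKM in 219 30P, against 121 and 138 FPKM in A15 (0.30 ± 0.10, limma adjusted p = 0.0176, 0.093 without replicate 2 of 219 30P and 0.140 without replicate 1 of A15). In complex IV, cytochrome c oxidase, COX4, COX5B and COX6B were lower. With median-ratio scaling RIP1 stood at 0.51, QCR6 and QCR9 were lower and 3 complex III genes higher, and COX5B and COX6B were lower and COX6A higher. The smaller calls depended on single libraries. SDH2 (AGABI2DRAFT_195434) and QCR8 (AGABI2DRAFT_138465) were not called without replicate 2 of A15 (limma adjusted p = 0.080 and 0.106), the SDH3 gene AGABI2DRAFT_217734 not without replicate 1 of 219 30P (0.0656), and COX4 not without that library (0.183) or either A15 library (0.056 and 0.1004).

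COX5B (AGABI2DRAFT_184110) was the lowest of the 50 genes, with 42.2 and 40.5 FPKM in 219 30P, against 118 and 129 FPKM in A15. The difference was -1.56 ± 0.11 (limma adjusted p = 4.44e-07), and -1.35 with median-ratio scaling. COX5A (AGABI2DRAFT_189180) had 99.8 and 90.3 FPKM in 219 30P, against 104 and 124 FPKM in A15, and was not called (-0.26, limma adjusted p = 0.0701). COX5B was lower than in A15 on day 27 too (-0.60), and on day 39 lower than in the mean of the other strains (-0.87).

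ATP synthase mostly did not share these differences: of its 10 genes 2 were lower and 8 were not called, beside 40.3% lower of all genes, and the median was -0.02. The gene ATP1 had 434 and 444 FPKM in 219 30P, against 439 and 437 FPKM in A15. The stalk subunit gene OSCP/ATP5 (AGABI2DRAFT_135814) was the lowest of the 10, with 83.5 and 95.5 FPKM in 219 30P, against 137 and 149 FPKM in A15 (-0.67 ± 0.08). With median-ratio scaling 3 ATP synthase genes were higher and 1 lower, beside 28.2% and 29.2% of all genes. The gene INH1, named for an inhibitor of ATP synthase in yeast, was lower (-0.55 ± 0.11, and -0.34 with median-ratio scaling). CytC2, named for cytochrome c, the electron carrier between complexes III and IV, was higher, with 427 and 385 FPKM in 219 30P, against 280.03 and 301 FPKM in A15 (0.48 ± 0.11, and 0.69 with median-ratio scaling).

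Of 3 genes of alternative respiration, the external NADH dehydrogenase gene NDE1 was higher (0.39 ± 0.09, and 0.59 with median-ratio scaling), NDE2 was not called (-0.18), and the alternative oxidase gene AOX was not called. AOX (AGABI2DRAFT_152135) had 49.7 and 43.7 FPKM in 219 30P, against 25.8 and 27.9 FPKM in A15. Its groups did not overlap, which on the higher side held for 2453 of all 8818 genes. Its difference of 0.77 ± 0.49 had a limma adjusted p of 0.187 where all 16 libraries share an estimate of spread, and 0.000429 with the 8 libraries of day 39 alone. In day 27 libraries of 065 BP-8 the same gene read 252 and 51.5 FPKM.

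**Figure D3:**
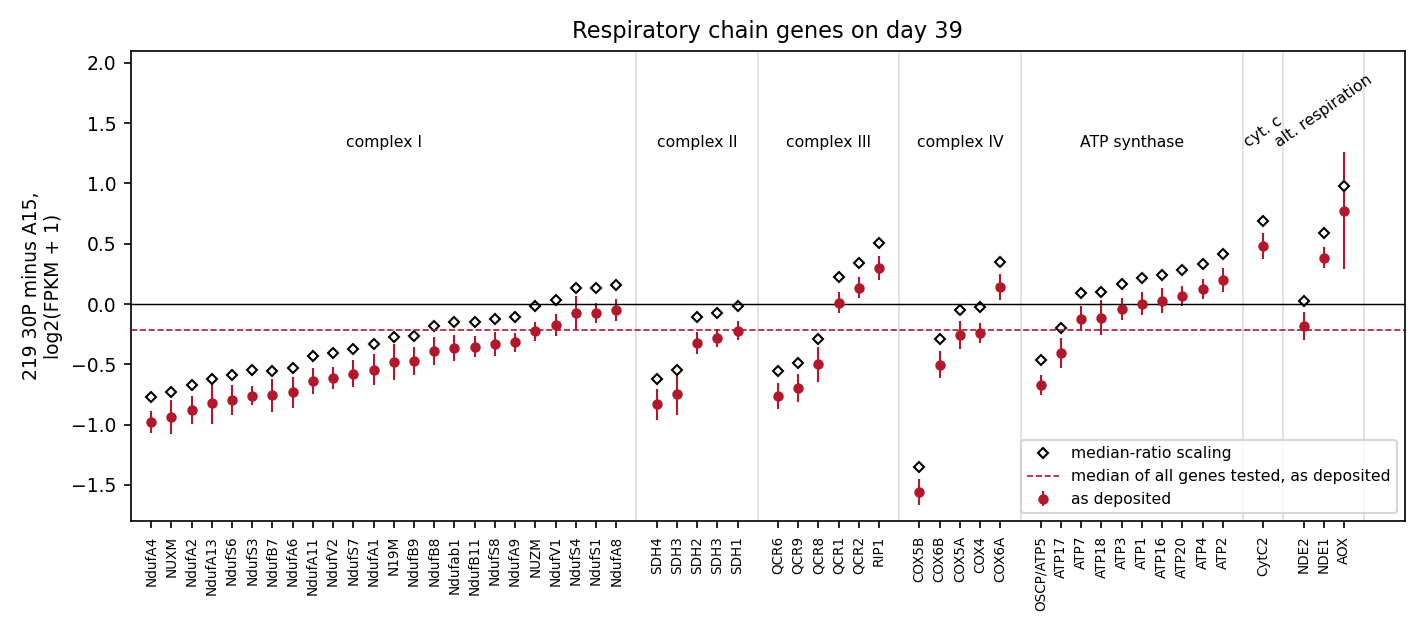
Difference between 219 30P and A15 on day 39 for each named gene of the respiratory chain, in log2(FPKM + 1), grouped by complex; red points with bars are values as deposited with their standard error, open diamonds values after median-ratio scaling, and the dashed line is the median of all genes tested (-0.22). Most complex I genes lie below the dashed line, COX5B lies lowest, and most ATP synthase genes lie near 0.

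Gene length moved with the difference. The reference lengths include introns. The genes tested were split into 5 nearly equal groups by length. In the shortest, of 150 to 928 bases, the median difference was -0.34, in the next 3 groups -0.31, -0.28 and -0.17, and in the longest, of 2607 to 18068 bases, -0.0018. The same groups gave medians of 0.12 to 0.17 on day 27, with no trend, and -0.19, -0.20, -0.16, -0.13 and -0.13 for 219 30P against the other strains on day 39. Both A15 libraries of day 39 differed by length too: replicate 2 minus replicate 1 had a median of 0.07 in the shortest and -0.17 in the longest group, while the medians for the 219 30P replicates lay between -0.0023 and 0.0127. The genes of the respiratory list are short, with a median length of 939.5 bases against 1600 bases over all genes tested. With the trend over length removed, a step chosen after seeing the data, 17 of the 50 respiratory genes were lower and 9 higher, beside 28.9% and 28.1% of all genes, 57.0% in all. In complex I, 11 of 24 were then lower and 1 higher. Among the genes named by rule, 10 lost their call in this way: SDH2, ATP17, QCR8, COX6B (limma adjusted p = 0.181), COX4, hom2, lcc9, met2 (0.0616) and the SDH3 genes AGABI2DRAFT_196410 (0.0530) and AGABI2DRAFT_217734.

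**Figure D4:**
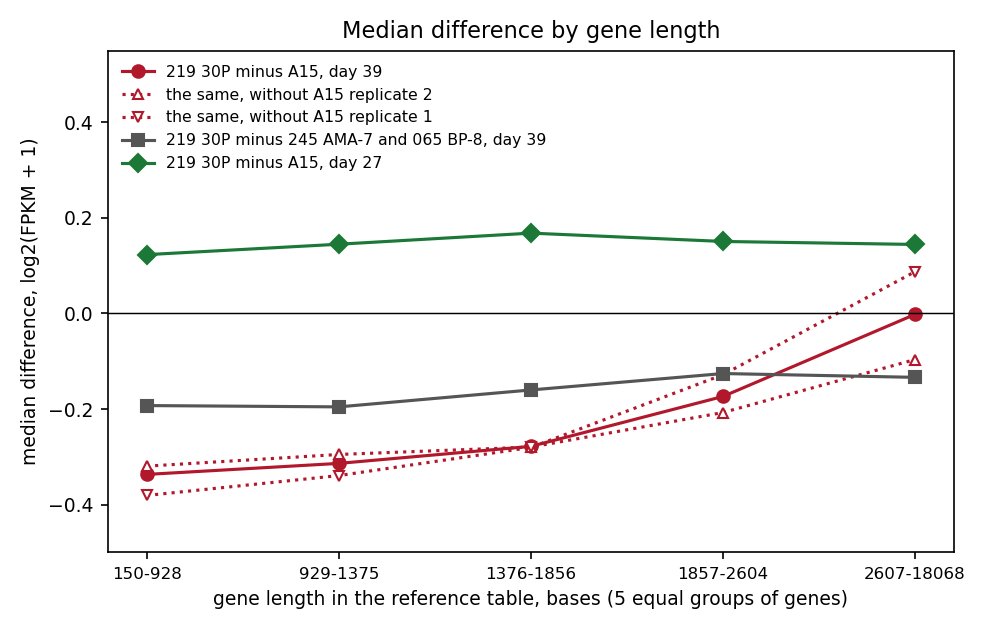
Median difference in log2(FPKM + 1) in 5 nearly equal groups of the tested genes by reference gene length, for 219 30P minus A15 on day 39 with both and with single A15 libraries, on day 27, and for 219 30P minus the other strains on day 39. The day 39 medians run from -0.34 in the shortest to about 0 in the longest group, and the day 27 medians stay between 0.12 and 0.17.

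Two-component signalling had 7 named genes, of which 6 were higher in 219 30P and 1, Hpt, was not called, beside 19.4% higher of all genes, with a median of 0.61. With median-ratio scaling all 7 were higher, beside 28.2% of all genes. These genes are long, with a median length of 4355 bases, and with the length trend removed 6 were higher. SKN7 (AGABI2DRAFT_198669), a response regulator of oxidative and osmotic stress in yeast, had 91.1 and 102 FPKM in 219 30P, against 45.9 and 34.5 FPKM in A15. Both 219 30P libraries were well above both A15 libraries (1.26 ± 0.16, limma adjusted p = 2.92e-05). On day 27 the strains stood level, with a difference of -0.02. On day 39 219 30P did not differ by call from the other strains (-0.18, limma adjusted p = 0.27), and A15 was the low strain.

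STK/HK (AGABI2DRAFT_114317), by its symbol a histidine kinase, had 33.3 and 29.7 FPKM in 219 30P, against 9.12 and 12.2 FPKM in A15 (1.49 ± 0.15, limma adjusted p = 6.99e-06). It was higher in 219 30P than in the mean of the other strains too (1.14). The kinase genes Tco6 (0.64 ± 0.12), Tco5 (0.61 ± 0.15) and Tco1 (0.55 ± 0.10), named after kinases of Cryptococcus, were higher than in A15, and with median-ratio scaling they stood at 0.85, 0.82 and 0.76. Against the other strains Tco1 was higher (0.61), while Tco6 and Tco5 were lower (-0.44 and -0.55). Over the 7 genes, 2 were higher and 2 lower against the other strains, beside 18.7% and 35.2% of all genes. The regulator gene SSK1 was higher than in A15 (0.42 ± 0.14, limma adjusted p = 0.0212, and 0.63 with median-ratio scaling), but not without replicate 2 of 219 30P (0.216) or of A15 (0.123).

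Catalases break down hydrogen peroxide, and both named genes were higher in 219 30P, beside 19.4% of all genes. CAT1 (AGABI2DRAFT_115586) had 5.89 and 5.20 FPKM in 219 30P, against 1.54 and 1.18 FPKM in A15 (1.47 ± 0.16). CAT3 (AGABI2DRAFT_200291) had 13.0 and 14.98 FPKM in 219 30P, against 5.91 and 6.57 FPKM in A15 (1.05 ± 0.15). Neither gene overlapped between the strains, which on the higher side also held for 2453 of all 8818 genes. Both were called higher than the mean of the other strains (0.77 and 0.37). For CAT3 that mean joins strains on either side of 219 30P, since 245 AMA-7 averaged 21.2 FPKM and 065 BP-8 5.07 FPKM. The call of CAT3 against the other strains was lost without any single one of their libraries or of those of 219 30P (limma adjusted p up to 0.223). Of 5 heat shock genes, hspD was lower (-0.48 ± 0.11, and -0.27 with median-ratio scaling), and 4 were not called, beside 40.3% lower of all genes. With median-ratio scaling hspB and hspC were called higher, beside 28.2% of all genes.

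C4H1 (AGABI2DRAFT_213259), by its symbol a cinnamate hydroxylase, which in plants acts after phenylalanine ammonia-lyase, had 11.9 and 5.78 FPKM in 219 30P, against 1.11 and 1.48 FPKM in A15. On day 39 it was low in every strain but 219 30P (2.03 ± 0.32, limma adjusted p = 1.62e-04, and 2.53 against the other strains). The ammonia-lyase gene PAL1 was lower (-0.60 ± 0.16, limma adjusted p = 0.00722, 0.0716 with median-ratio scaling and 0.094 without replicate 2 of A15) and PAL2 was not called (0.21). The gene met2, named for a methionine synthesis enzyme of yeast, had 16.6 and 13.6 FPKM in 219 30P, against 24.2 and 39.9 FPKM in A15 (-1.004 ± 0.30, limma adjusted p = 0.0129, and 0.081 without replicate 2 of 219 30P and 0.133 without replicate 2 of A15). It was higher in 219 30P than in the other strains (2.11). PhrB, named for a DNA photolyase, had 12.1 and 11.9 FPKM in 219 30P, against 25.8 and 30.04 FPKM in A15 (-1.15 ± 0.14). For PhrB the other strains lay near 219 30P (-0.22). Fet3, a ferroxidase of iron uptake in yeast, was lower than in A15 (-0.51 ± 0.16, limma adjusted p = 0.0149), though not with median-ratio scaling (-0.30, limma adjusted p = 0.122) or without replicate 1 of 219 30P (0.087) or of A15 (0.172), and lower than in the other strains (-1.66).

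The largest higher values in 219 30P lay in unnamed genes, of which the 8 largest were taken by rule. AGABI2DRAFT_192027 had 2162 and 1627 FPKM in 219 30P, against 26.4 and 204 FPKM in A15. AGABI2DRAFT_204544 had 1516 and 1078 FPKM in 219 30P, against 25.5 and 115 FPKM in A15. In both the A15 libraries differed several-fold, yet lay far below 219 30P, and the differences were 4.65 ± 0.74 and 4.53 ± 0.50. AGABI2DRAFT_65955 had 6099 and 7486 FPKM in 219 30P, against 188 and 460.4 FPKM in A15 (4.52 ± 0.64). AGABI2DRAFT_46341, in contrast, had close replicates, with 69.8 and 67.5 FPKM in 219 30P, against 0.89 and 0.88 FPKM in A15 (5.21 ± 0.24). AGABI2DRAFT_65431 had 600.5 and 722 FPKM in 219 30P, against 5.67 and 20.5 FPKM in A15 (5.78 ± 1.09, limma adjusted p = 0.000645). The other strains held 66.8 and 135 FPKM of it on average.

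The 158 genes at least 4-fold higher had a median level of 163 FPKM in 219 30P on day 39, against 22.0 FPKM in A15, 27.4 FPKM in 245 AMA-7 and 21.6 FPKM in 065 BP-8. In 219 30P on day 27 their median was 16.3 FPKM. In 128 of the 158, 219 30P had the highest mean of the 4 strains, as it did in 1590 of all 8818 genes, a share partly set by how the 158 were taken. On day 27, 53 of the 158 were also higher in 219 30P and 10 were lower, beside 27.5% and 14.1% of all genes. A different day effect in 219 30P and in A15 was called for 129, beside 50.4% of all genes. That test reuses the day 39 difference by which the 158 were taken, so its count is partly set in advance. The A15 libraries differed in these genes. Replicate 2 was at least 2-fold above replicate 1 in 48 of the 158 and in 88 of all 8818 genes, while the reverse held for 1 of the 158. In 219 30P, replicate 2 was that far above in 1 of the 158 and below in 5. Without A15 replicate 2, 185 genes were at least 4-fold higher, and without A15 replicate 1, 130. What sets the A15 libraries apart was not tested.

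**Figure D5:**
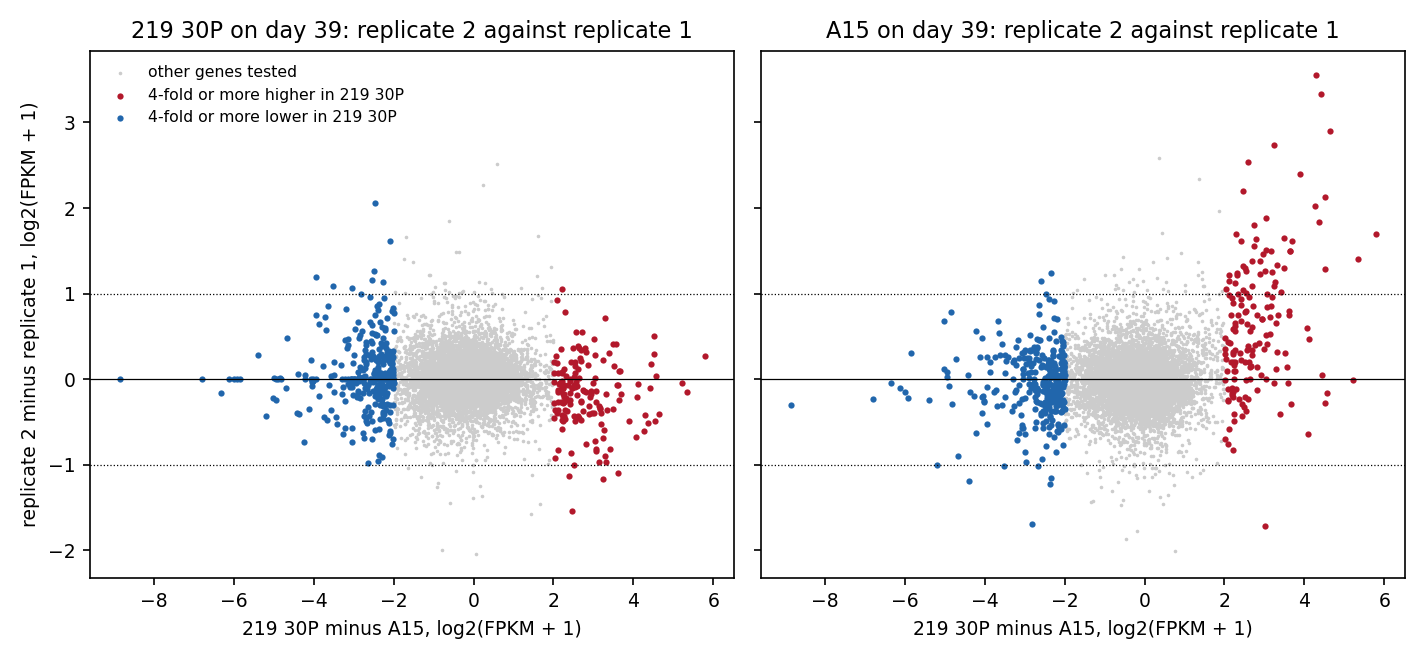
Difference between replicates 2 and 1 of day 39 (vertical axis, log2(FPKM + 1)) against the difference between 219 30P and A15 (horizontal axis) for each tested gene, in 219 30P (left) and A15 (right); dotted lines mark a 2-fold gap between replicates. In A15, 48 of the 158 genes in red lie above the upper dotted line.

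The 316 genes at least 4-fold lower had a median of 4.62 FPKM in 219 30P, against 34.9 FPKM in A15. The other strains lay between, with 10.8 FPKM in 245 AMA-7 and 12.01 FPKM in 065 BP-8. A15 had the highest mean of the 4 strains in 273 of the 316 and 219 30P the lowest in 211, as they did in 3280 and 3420 of all 8818 genes, and the way the 316 were taken partly sets both shares. On day 27, 183 of the 316 were also lower in 219 30P and 16 were higher, beside 14.1% and 27.5% of all genes.

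Among the lower genes, 13 were listed at 0 in both 219 30P libraries and averaged 10 FPKM or more in A15. The reverse, at 0 in both A15 libraries and 10 FPKM or more in 219 30P, held for 0 genes listed for both strains. That comparison is not even, since 918 genes are not listed in the A15 tables. Of these 1, AGABI2DRAFT_71082, had 15.9 and 15.2 FPKM in 219 30P. AGABI2DRAFT_191018 was listed at 0 in both 219 30P libraries, against 515 and 418 FPKM in A15. AGABI2DRAFT_191017, which has the adjacent identifier, was also listed at 0, against 119 and 101 FPKM in A15. In 245 AMA-7 both were detected, with 12.7 and 126.6 FPKM for the one and 2.05 and 15.9 FPKM for the other. AGABI2DRAFT_121073, AGABI2DRAFT_180318 and AGABI2DRAFT_122821 were listed at 0 in 219 30P, against 54.8 to 71.04 FPKM in A15. These 3 were at or near 0 in 245 AMA-7 and 065 BP-8 as well, with 0.13 FPKM or less on day 39. On day 27, 11 of the 13 genes were at 0 in 219 30P too. AGABI2DRAFT_181640, at 0.12 and 0 FPKM in 219 30P, had 85.7 and 83.3 FPKM in A15, and averaged 32.5 FPKM in 245 AMA-7 and 54.9 FPKM in 065 BP-8.

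Some of the differing genes stood next to each other. By the gene order of the assembly Agabi_varbisH97_2, 14 runs of 4 or more neighbours were all at least 2-fold lower (63 genes). Another 2 runs were at least 2-fold higher (9 genes). At that size 14.9% of all genes were lower and 6.51% higher as deposited, so more lower runs arise from the shares alone. Whether the runs exceed these shares was not tested, and runs were not counted with another scaling. The longest, of 6 genes, ran through AGABI2DRAFT_194030. That gene had 1775 and 2482 FPKM in 219 30P, against 6195 and 6596 FPKM in A15 (-1.61). Over the 6 genes the median difference was -2.77, and -2.56 against the other strains. A run of 5 around AGABI2DRAFT_191400 summed to 17.6 and 18.4 FPKM in 219 30P, against 298 and 272 FPKM in A15. The longest higher run, of 5 genes around AGABI2DRAFT_192468, summed to 178 and 181 FPKM in 219 30P, against 53.1 and 54.8 FPKM in A15.

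The most abundant transcript was AGABI2DRAFT_136557 in both strains, with 25156 and 25162 FPKM in 219 30P, against 29910 and 34225 FPKM in A15, and it was not called (-0.35, limma adjusted p = 0.222). AGABI2DRAFT_136569 ranked sixth in 219 30P with 13247 and 12629 FPKM, against 21944 and 25156 FPKM and second place in A15 (-0.86 ± 0.18, limma adjusted p = 0.0016). AGABI2DRAFT_75975 ranked second in 219 30P with 17906 and 16088 FPKM, against 11118 and 9434 FPKM and sixth place in A15 (0.73 ± 0.25, limma adjusted p = 0.0259, and up to 0.138 when a single library of either strain was left out).

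Day 27 offers 4 other libraries of the same strains. At pinning 3668 genes were called (41.6%), 2422 higher (27.5%) and 1246 lower (14.1%) in 219 30P. Of the 1715 genes higher on day 39, 657 were also higher on day 27, which is 38.3% of the day 39 list and 27.1% of the day 27 list, and 115 were lower. Of the 3553 lower genes, 807 were also lower on day 27, which is 22.7% of the day 39 and 64.8% of the day 27 list, and 739 were higher. With median-ratio scaling 37.9% of all genes were called on day 27, 18.5% higher and 19.5% lower. Then 332 of the 2489 higher genes were lower on day 27 and 282 of the 2571 lower genes were higher. A test of the day effect in 219 30P against that in A15 called 4448 genes (50.4%), with 1100 higher (12.5%) and 3348 lower (38.0%). With median-ratio scaling it called 3803 (43.1%), with 1955 higher (22.2%) and 1848 lower (21.0%).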

How the data were processed

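The deposited values of the authors were read as FPKM. No label or header names the unit: the values have 2 decimals and sum to different totals per library. BWA, Bowtie and RSEM appear in the submitters' processing notes. No version, role or genome build is given in the sources used here. Per the labels' protocols, RNA came from a caesium chloride gradient and standard Illumina libraries.

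From these, differences in log2(FPKM + 1) were computed for 8818 genes that are listed in all files and average 1 FPKM or more over 16 libraries. The test was limma-trend (limma 3.58.1, R 4.3.3) with a mean for each of the 8 groups and a spread shared by all libraries (8 residual and 4.16 prior degrees of freedom), with Benjamini-Hochberg adjustment and a threshold of 0.05. Tables and plots were made with pandas 2.3.3, matplotlib 3.10.9 and numpy 2.4.6 under Python 3.11.15. On data simulated for the day 39 comparison over 8818 genes, 95% of genes changed 2-fold and 100% of genes changed 4-fold were recovered, with 13 false calls. The simulation changed 100 genes at each size, far fewer than were called in the data. It gave all groups equal means otherwise, with normal noise whose spread depended on level alone. It held no shift of scaling and no length trend, so these figures need not hold for the real comparison. Other contrasts were the same strains on day 27, the difference of day effects, and 219 30P against the mean of 245 AMA-7 and 065 BP-8. Leaving out a library leaves a lone one, assumed to vary like the other groups.

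Of 10438 identifiers 10373 matched the assembly Agabi_varbisH97_2, used for names, lengths and gene order. The gene lists are those with a symbol, 88 genes in all. Genes were named by size of difference (8 each way, and 10 each way with a symbol), by list, by abundance, by listing at 0 and by the smallest p of the day effect test, 66 in all, with a mean of 10 FPKM or more in the higher group for the size ranks. Other genes named were chosen after their values were seen. The comparison and the lists were chosen with earlier results of these data known. Replicate numbers were not taken as pairs: deviations of libraries with the same number correlated from -0.27 to 0.17 over 28 pairs of groups.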

Additional observations from a re-analysis of the deposited data

Results flagged for a closer look

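The difference between 219 30P and A15 changed between day 39 and day 27 in 4448 of the genes tested, by limma's test of the day effect in 219 30P minus that in A15. Of the 66 genes named by rule, 21 passed this test with a change of at least 2-fold and 17 with less, beside 50.4% of all genes at any size. Some of the 66 were taken by their day 39 difference or by this test itself, so the rule partly sets these counts. The falls in 219 30P relative to A15 were led by lcc1 with -6.82, lcc2 with -3.85, MnP with -3.64, abl with -2.75 and AGABI2DRAFT_181640 with -2.44. Smaller ones were QCR9 with -1.250, AGABI2DRAFT_136557 with -1.13, NdufA2 with -1.05 and NdufA4 with -1.01. With median-ratio scaling these stood at -0.90 for QCR9, -0.70 for NdufA2 and -0.66 for NdufA4, and AGABI2DRAFT_136557 lost its call (-0.78, limma adjusted p = 0.106). The rises were largest in unnamed genes, with 4.71 for AGABI2DRAFT_65431, 4.46 for AGABI2DRAFT_204544, 4.03 for AGABI2DRAFT_192027 and 3.64 for AGABI2DRAFT_65955. AGABI2DRAFT_46341 rose by 2.96, AGABI2DRAFT_117544 by 2.58, AGABI2DRAFT_56522 by 2.49, AGABI2DRAFT_73814 by 1.246 and AGABI2DRAFT_193057 by 1.08. Among named genes the rises were 1.28 for SKN7, 1.26 for C4H1 and 1.11 for SSK1. All these are log2(FPKM + 1) differences of differences. For 5 of these genes the call was lost when a single library was left out, with limma adjusted p up to 0.102 for AGABI2DRAFT_65431, 0.0835 for AGABI2DRAFT_56522, 0.0684 for AGABI2DRAFT_193057, 0.0566 for AGABI2DRAFT_136557 and 0.150 for C4H1.

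Outside the genes tested, 7 of the 918 genes that the A15 tables do not list averaged 1 FPKM or more in 219 30P on day 39. The highest, AGABI2DRAFT_71082, had 15.9 and 15.2 FPKM, and 857 of the 918 were at 0 in both 219 30P libraries.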

How the results depend on the processing

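On day 39 the count of 5268 calls was 4361 to 4564 with a single library left out, 4923 with the 4 libraries alone, 5251 with a replicate block and 5274 with crossed numbers; the block ended the call of lcc9 (limma adjusted p = 0.0576) and of no other gene named by rule. With a change of at least 2-fold required, 1892 genes passed on day 39, 971 on day 27, 1144 against the other strains and 2134 for the day effect. At least 4-fold, the 158 higher and 316 lower genes were 107 and 146 with a pseudocount of 5, and 200 and 428 with 0.1. Quantile normalization gave 2648 higher genes on day 39, against 1715 as deposited. For the day effect, 1100 higher and 3348 lower genes became 1955 and 1848 after median-ratio scaling, 1844 and 2028 after quantile normalization, and 1915 and 1845 with the length trend removed, which was chosen after seeing the data. Signs turned only in genes with small differences: PAL2 (-0.0017 to 0.418 over left-out libraries, lowest without replicate 2 of A15), AGABI2DRAFT_193057 with quantile normalization (-0.21) and over left-out libraries (-0.069 without replicate 1 of A15 to 0.352), AGABI2DRAFT_136557 (0) with quantile normalization, NDE2 (0.027) with median-ratio scaling, and COX4 (0.079) and AGABI2DRAFT_217734 (0.063) with the length trend removed. The cause was not tested. Median-ratio scaling ended the call of 9 of the named genes, and leaving out single libraries that of 5 to 9. The files give no counts, so precision at low levels is unknown.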
